A study of Mus musculus with 12 samples.

Results

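The eukaryotic translation initiation factors (Eif genes) were examined in murine CML stem and progenitor cells and in cells of the same model with the oncogene switched off. A gene was taken when its Ensembl identifier mapped to a protein-coding mouse symbol that starts with Eif and a digit from 1 to 6, leaving out the eIF2 kinases (Eif2ak genes) and the sex-linked copies Eif2s3x and Eif2s3y. This gave 50 of the 56748 genes counted, and 48 of the 50 had enough counts to be tested. The cells were donor-derived (CD45.2+) Lin-Sca+Kit+ bone marrow (BM) cells, in which stem cells and multipotent progenitors are enriched, sorted from irradiated B6.SJL (CD45.1) recipients of SCLtTA/BCR-ABL (DTG) BM. In this model a tetracycline-controlled transactivator under stem cell leukaemia (SCL) regulatory elements, which are active in stem and progenitor cells, switches on human BCR::ABL1 once tetracycline (TET) is withdrawn. All recipients, aged 8 to 12 weeks, drank TET for the first 2 weeks. The BCR::ABL1+ group (labelled CML 2wk, n = 6 libraries) then spent 2 weeks without TET, and the BCR::ABL1- group (labelled CTRL, n = 6 libraries) stayed on it, so both groups carried both transgenes and differed in TET as well as in BCR::ABL1. The donor marrow was a frozen pool from mice of both sexes, while the labels call every BCR::ABL1- library male and every BCR::ABL1+ library female, so the labelled sex and the group cannot be told apart. The labels give separate samples without naming animals, so the p-values measure the spread between these libraries, which may be technical.

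Initiation factors bring the initiator methionyl-tRNA, the small ribosomal subunit and the capped mRNA together. eIF2 carries the initiator tRNA as a complex with GTP and is recharged by eIF2B, eIF1 and eIF1A keep the subunit open for scanning, and eIF3 is the large scaffold that binds the subunit and the mRNA-bound factors. eIF4F joins the cap-binding protein eIF4E, the helicase eIF4A and the scaffold eIF4G, while 4E-binding proteins (4E-BPs) compete with eIF4G for eIF4E and release it when mTORC1 phosphorylates them. In haemopoietic stem cells protein synthesis is known to be kept low, and the eIF4F branch lies downstream of BCR::ABL1 signalling through PI3K, mTORC1 and the MNK kinases.

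The BCR::ABL1- libraries held 22804754 to 41832868 counts and the BCR::ABL1+ libraries 16150817 to 25070105. Several other measures differed between the groups without overlap. The mitochondrial share of counts was 0.816 to 1.288% in BCR::ABL1- and 2.258 to 2.973% in BCR::ABL1+ libraries. All 10 erythroid markers were lower in BCR::ABL1+ cells (summed level 480 to 668 against 108 to 201 CPM, normalised read counts relative to library size), and so were 9 of 11 stem and progenitor markers (3070 to 3500 against 1920 to 2420 CPM). Of the sorting markers, Kit fell by 0.86 on the log2 scale but stayed at 323 CPM or more, and Ly6a (Sca-1) had 27.2 to 38.3 against 31.4 to 74.1 CPM. In 8 of 10 mast cell and basophil markers the level was higher in BCR::ABL1+ cells (101 to 203 against 443 to 2630 CPM). All 6 tested megakaryocyte markers were lower (292 to 343 against 93.7 to 257 CPM). Neutrophil markers had 4 of 10 higher and 2 lower (2330 to 4690 against 3120 to 8540 CPM, with overlap), and monocyte markers 3 of 10 higher and 0 lower (352 to 579 against 553 to 1180 CPM, with overlap). BCR::ABL1+ replicates 2 and 4 stood apart, with summed stromal markers of 2920 and 554 CPM against a median of 86.9 in their group. Of the G2M list of 15 genes, 9 were lower and 3 higher (4180 to 5060 against 2540 to 3200 CPM). The S phase list of 15 genes had 7 lower and 4 higher (3120 to 3790 against 3120 to 3850 CPM, with overlap). Over all genes tested 28.8% were lower and 30.4% higher, and 44.7% and 29.9% of those with a mean of at least 20 CPM. No gene of these lists was at 0 in all libraries. Their part in the results below was not tested, and in bulk samples a change in the share of cells of a type and a change in RNA per cell cannot be told apart.

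Most initiation factors differed between the groups, and more of them were higher than lower in BCR::ABL1+ cells. With edgeR's quasi-likelihood test and Benjamini-Hochberg adjustment over all 18438 genes tested, 28 of 48 (58.3%) were called higher and 12 (25%) called lower, with 0.05 as the threshold. Over all genes the test called 59.2%, with 30.4% higher and 28.8% lower. The median log2 fold change (BCR::ABL1+ over BCR::ABL1-) of the 48 was 0.37, from -1.0 to 1.51, against a median of 0.07 over all genes. Initiation factors are abundant, and among the 8079 genes with a mean of at least 20 CPM 29.9% were higher and 44.7% lower, with a median of -0.12. The 45 initiation factors at that level had 62.2% higher and 26.7% lower, with a median of 0.35. In 30 of 48 every BCR::ABL1+ library lay on one side of every BCR::ABL1- library (21 above and 9 below), which held for 37.6% of all genes (17% above and 20.6% below). The summed level of all 50 was 9885 to 11590 CPM in BCR::ABL1- against 11650 to 14460 CPM in BCR::ABL1+ libraries. Both directions occurred within complexes, as the plot of fold changes by complex shows. Without BCR::ABL1+ replicates 2 and 4, 26 were higher and 12 lower, with Eif2s2 at 1.60 and Eif4ebp2 at -1.04.

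**Figure D1:**
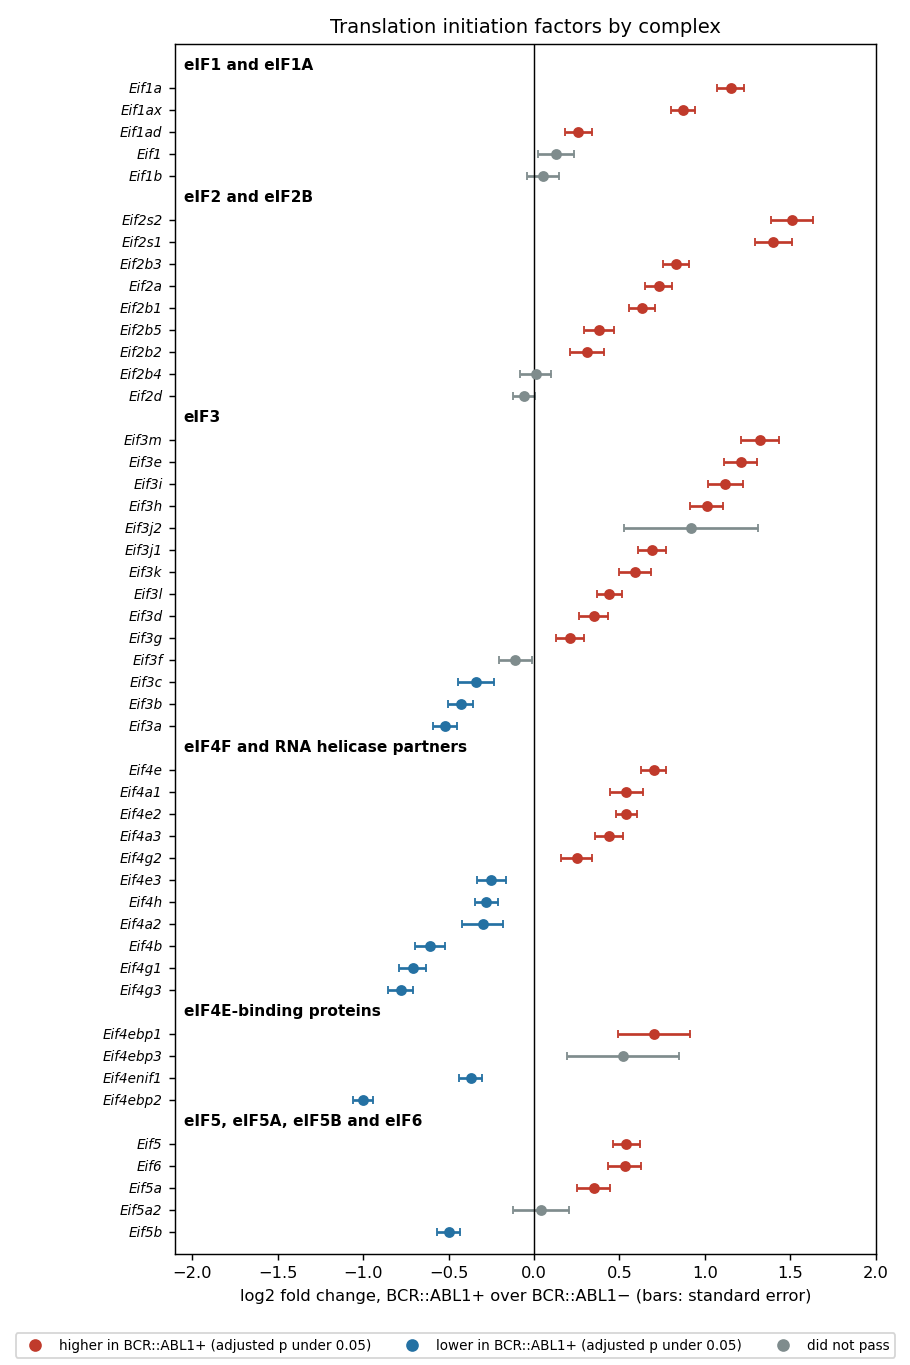
The log2 fold change (x axis, BCR::ABL1+ over BCR::ABL1-, n = 6 libraries each) of the 48 tested initiation factors (y axis), grouped by complex, with bars for the standard error and colours for the call at an adjusted p under 0.05. Eif2s2 stands highest at 1.51 and Eif4ebp2 lowest at -1.0, and no gene of the eIF2 and eIF1 groups was called lower.

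The eIF2 and eIF2B group had the highest median log2 fold change of the 6 groups (0.63), with 7 of 9 genes higher and 0 lower. The share called of 77.8% is near the 74.7% among all genes with a mean of at least 20 CPM. Of those genes 29.9% were higher and 44.7% lower. Its summed level was 573.3 to 696.9 CPM in BCR::ABL1- against 1122 to 1593 CPM in BCR::ABL1+ libraries. Both eIF2 subunits of the set had its highest log2 fold changes. Eif2s2 (ENSMUSG00000074656), the beta subunit that contacts eIF5 and eIF2B, had 122 to 153 CPM (median 141) in BCR::ABL1- against 321 to 561 CPM (median 369) in BCR::ABL1+ libraries, a log2 fold change of 1.51 (SE 0.122, adjusted p = 9.21e-08). Eif2s1 (ENSMUSG00000021116), the alpha subunit whose phosphorylation by stress kinases blocks recharging, had 119 to 153 CPM (median 151) against 282 to 454 CPM (median 367), a log2 fold change of 1.40 (SE 0.108, adjusted p = 4.84e-08). For both genes the lowest BCR::ABL1+ library exceeded the highest BCR::ABL1- library. Replicate 2 was the lowest BCR::ABL1+ library for both, and replicate 6 was the highest for Eif2s2. The ratio of Eif2s1 to Eif2s2 within a library, chosen after the values were seen, was 0.977 to 1.11 in BCR::ABL1- against 0.791 to 1.05 in BCR::ABL1+ libraries. The third subunit, eIF2 gamma, is encoded by the X-linked Eif2s3x and the Y-linked Eif2s3y, which lie outside the set. Eif2s3x went from 96.9 to 125 CPM to 121 to 178 CPM (log2 fold change 0.44, adjusted p = 0.00103). The ratio of Eif2s1 to Eif2s3x, also chosen after the values were seen, was 1.22 to 1.37 in BCR::ABL1- against 1.67 to 3.39 in BCR::ABL1+ libraries, with no overlap. Since the labels give each group one sex, labelled sex and group cannot be told apart in this ratio.

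eIF2B is the guanine nucleotide exchange factor of eIF2, with the catalytic part in the gamma and epsilon subunits. Eif2b3 (gamma) rose by 0.83 on the log2 scale (SE 0.0752, adjusted p = 1.97e-07), from 20 to 24.1 CPM to 37.0 to 45.4 CPM. Eif2b1 (alpha) rose by 0.63 (SE 0.0761, adjusted p = 3.63e-06), from 33.1 to 40.5 CPM to 52.7 to 69.6 CPM. In both genes BCR::ABL1+ replicate 1 was the highest library. Eif2b5 (epsilon) and Eif2b2 (beta) were called higher at 0.38 and 0.31, with groups that overlapped. Eif2b4 (delta) had 21.9 to 26.2 against 22.1 to 29.5 CPM (log2 fold change 0.01, adjusted p = 0.922). The 5 subunits of the same complex therefore ranged from 0.01 to 0.83. Of the factors that can deliver tRNA without eIF2, Eif2a rose by 0.73, from 106 to 135 CPM to 185 to 251 CPM, while Eif2d had 58.7 to 66.1 against 53.1 to 69.3 CPM (log2 fold change -0.06, adjusted p = 0.455). Eif2a, Eif2b4 and Eif2d share exon sequence with a gene on the other strand (Serp1, Snx17 and Rassf5), and the use of strand in counting is not given in the sources used here, so these 3 values are uncertain.

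Of 6 eIF2 kinases and phosphatase subunits, which act on eIF2 from outside, 0 were higher and 5 lower, with a median log2 fold change of -0.42. Over all genes 28.8% were lower, and 44.7% of those with a mean of at least 20 CPM. Ppp1r15b, the constitutive phosphatase subunit, had 184 to 221 against 172 to 210 CPM (-0.14, adjusted p = 0.0751). Ppp1r15a, the stress-induced subunit that directs the phosphatase to eIF2 alpha, fell by 1.19 (adjusted p = 0.00424), from 13.1 to 47.1 CPM to 8.66 to 18.3 CPM, with overlap. Eif2ak2, the kinase PKR that responds to double-stranded RNA, fell by 0.68 (adjusted p = 3.43e-06), and Eif2ak3, the kinase PERK of the endoplasmic reticulum, fell by 0.45 (adjusted p = 5.6e-05). For both kinases the groups did not overlap, while they did for Eif2ak4, the amino acid sensor GCN2 (-0.32, adjusted p = 0.00182).

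**Figure D2:**
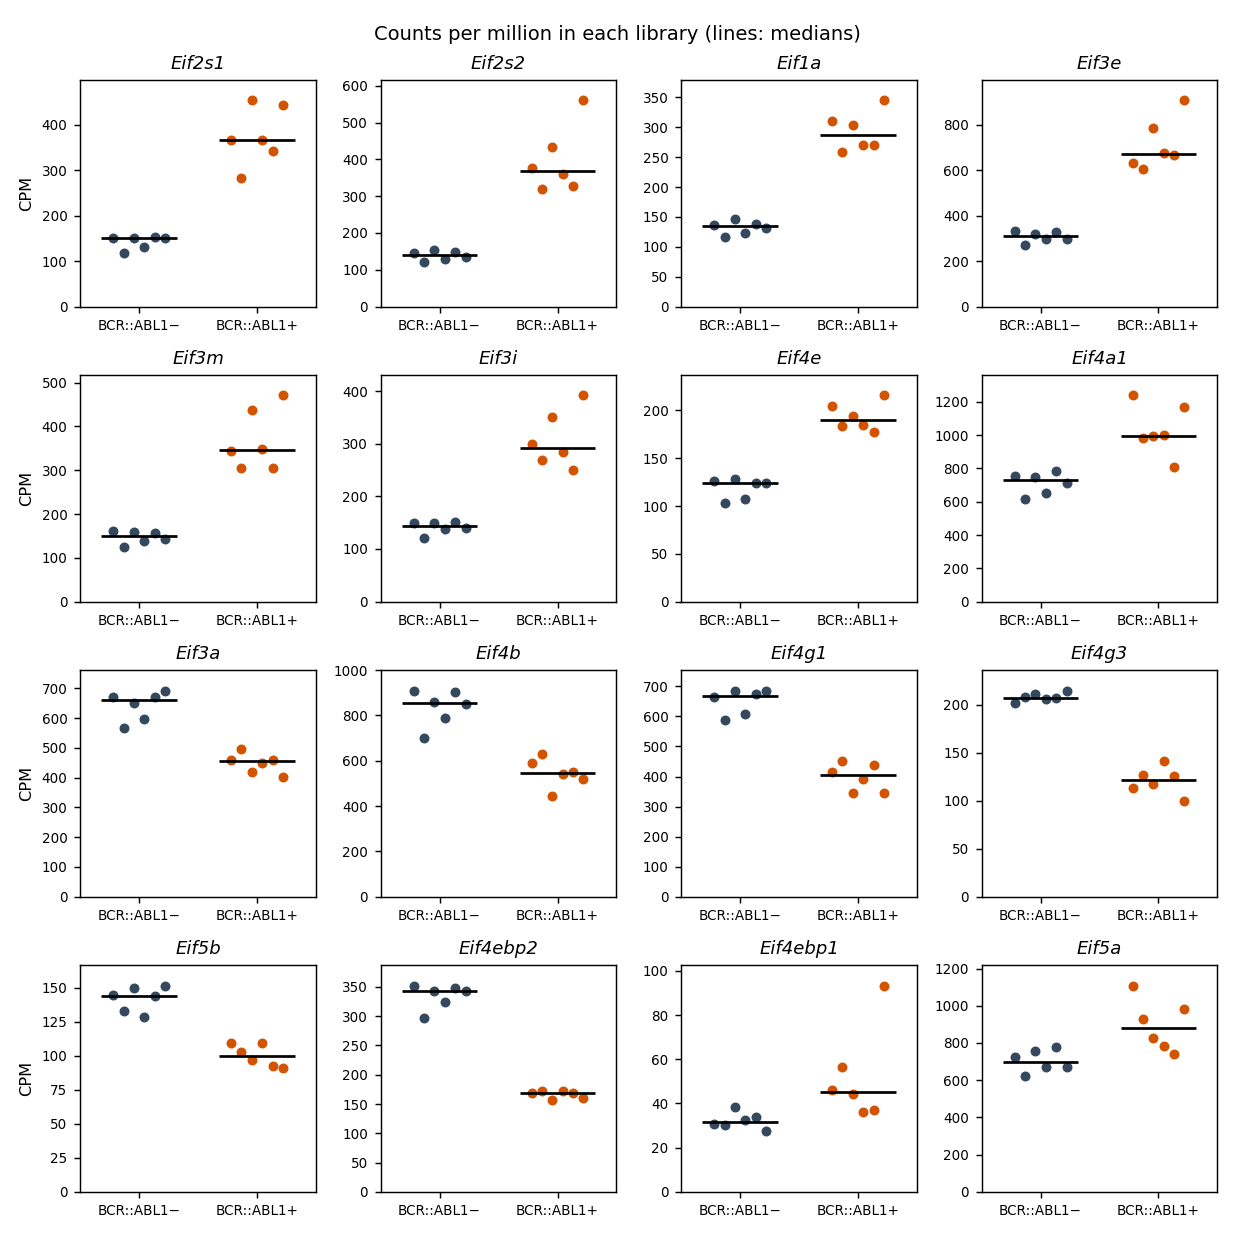
Level (y axis, CPM) of 16 initiation factors in each library (points) of both groups (x axis, n = 6 each), with lines for the medians. In Eif2s1, Eif2s2, Eif1a, Eif3e, Eif3m, Eif3i, Eif4e and Eif4a1 all BCR::ABL1+ libraries lie above the BCR::ABL1- libraries, in Eif3a, Eif4b, Eif4g1, Eif4g3, Eif5b and Eif4ebp2 all lie below, and in Eif4ebp1 and Eif5a the groups overlap.

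In the eIF1 and eIF1A group 3 of 5 genes were higher and 0 lower (median 0.26). The share called of 60% is near the 59.2% of all genes and below the 74.7% of those with a mean of at least 20 CPM. The rise lay in the eIF1A copies, which bind the decoding site of the small subunit and hold it open for scanning. Eif1a had 116 to 147 CPM (median 134) in BCR::ABL1- against 259 to 345 CPM (median 287) in BCR::ABL1+ libraries, a log2 fold change of 1.15 (SE 0.0803, adjusted p = 2.31e-08). Eif1ax, its X-linked copy, had 142 to 174 CPM (median 158) against 264 to 314 CPM (median 293), a log2 fold change of 0.87 (SE 0.0692, adjusted p = 6.27e-08). Both were above the BCR::ABL1- range in every BCR::ABL1+ library. The ratio of Eif1a to Eif1ax was 0.788 to 0.895 in BCR::ABL1- against 0.910 to 1.11 in BCR::ABL1+ libraries. The 2 coding sequences are nearly alike, and the treatment of reads that match both is not given, so the split between them is uncertain. The eIF1 copies, which guard the choice of start codon, did not pass. Eif1 had 166 to 210 against 171 to 282 CPM (log2 fold change 0.13, adjusted p = 0.31), and Eif1b had 33.9 to 46.7 against 33.3 to 46.0 CPM (0.05, adjusted p = 0.637). Their ratio overlapped between the groups, at 4.47 to 5.30 and 4.24 to 6.07. Eif1ad, an eIF1A domain protein, was called higher at 0.26 (adjusted p = 0.011) with overlapping groups, and it shares exon sequence with Banf1 on the other strand.

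The eIF3 subunits split. Of 14 genes, 9 were higher and 3 lower, with a median log2 fold change of 0.52 and a summed level of 2789 to 3335 CPM in BCR::ABL1- against 3600 to 4689 CPM in BCR::ABL1+ libraries. The share called was 85.7%, against 74.7% of all genes with a mean of at least 20 CPM (29.9% higher and 44.7% lower). The subunits that rose most were small ones. Eif3m (ENSMUSG00000027170), a PCI-domain subunit of the octamer core, had 125 to 162 CPM (median 150) against 304 to 471 CPM (median 345), a log2 fold change of 1.32 (SE 0.111, adjusted p = 1.08e-07). Eif3e (ENSMUSG00000022336), another PCI subunit, had 269 to 332 CPM (median 309) against 606 to 908 CPM (median 671), a log2 fold change of 1.21 (SE 0.0966, adjusted p = 6.11e-08). The groups were far apart in both, and replicate 6 was the highest BCR::ABL1+ library. Eif3i, a WD40 subunit that docks on Eif3b, had 121 to 151 CPM (median 144) against 249 to 392 CPM (median 292), a log2 fold change of 1.12 (SE 0.102, adjusted p = 2.16e-07). Eif3h, an MPN-domain subunit, had 183 to 227 CPM (median 213) against 342 to 538 CPM (median 395), a log2 fold change of 1.01 (SE 0.0971, adjusted p = 3.67e-07). Eif3j1, Eif3k, Eif3l and Eif3d also rose without overlap, by 0.69, 0.59, 0.44 and 0.35. Eif3m shares exon sequence with Ccdc73 and Eif3j1 with Spg11, both on the other strand.

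The large subunits on which eIF3 is assembled were called lower, though with GC and length trends taken out Eif3b (-0.09, adjusted p = 0.289) and Eif3c (-0.22, adjusted p = 0.0884) did not pass and Eif3a (-0.39) did. Eif3a, the central scaffold, had 568 to 693 CPM (median 659) in BCR::ABL1- against 402 to 498 CPM (median 455) in BCR::ABL1+ libraries, a log2 fold change of -0.52 (SE 0.0707, adjusted p = 1.25e-05). Eif3b, the WD40 scaffold that holds Eif3i and Eif3g, had 338 to 411 CPM (median 389) against 245 to 311 CPM (median 289), a log2 fold change of -0.43 (SE 0.0728, adjusted p = 0.000111). In both genes every BCR::ABL1+ library lay below every BCR::ABL1- library. Eif3c, the other large core subunit, was called lower at -0.34 (adjusted p = 0.0138), with 351 to 420 against 237 to 387 CPM and overlap. Eif3f, an MPN-domain subunit, had 283 to 344 against 230 to 356 CPM (log2 fold change -0.11, adjusted p = 0.344). Eif3g, an RNA-binding subunit, was just past the threshold (0.21, adjusted p = 0.0429). It lost the call without any 1 library other than BCR::ABL1- replicate 3 and BCR::ABL1+ replicates 3 and 5, where the adjusted p was 0.0527 to 0.115. Eif3j2, a near copy of Eif3j1, was hardly counted, at 0.563 to 1.13 against 0.735 to 3.98 CPM (log2 fold change 0.92, adjusted p = 0.0531). Without BCR::ABL1+ replicate 2 its log2 fold change was 0.39, and without replicates 3, 4 or 5 of that group it passed the test.

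Ratios between subunits within a library, chosen after the values were seen and given with no test, show how far the subunit levels moved against each other. The ratio of Eif3e to Eif3a was 0.428 to 0.498 in BCR::ABL1- against 1.22 to 2.26 in BCR::ABL1+ libraries. That of Eif3m to Eif3c went from 0.352 to 0.387 to a range of 0.834 to 1.85, and that of Eif3i to Eif3b from 0.356 to 0.390 to a range of 0.802 to 1.48. These are ratios of CPM, which are not scaled to gene length, so they compare the groups and not the amounts of the subunits. With GC and length trends taken out of the fit, Eif3b and Eif3c were not called lower.

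**Figure D3:**
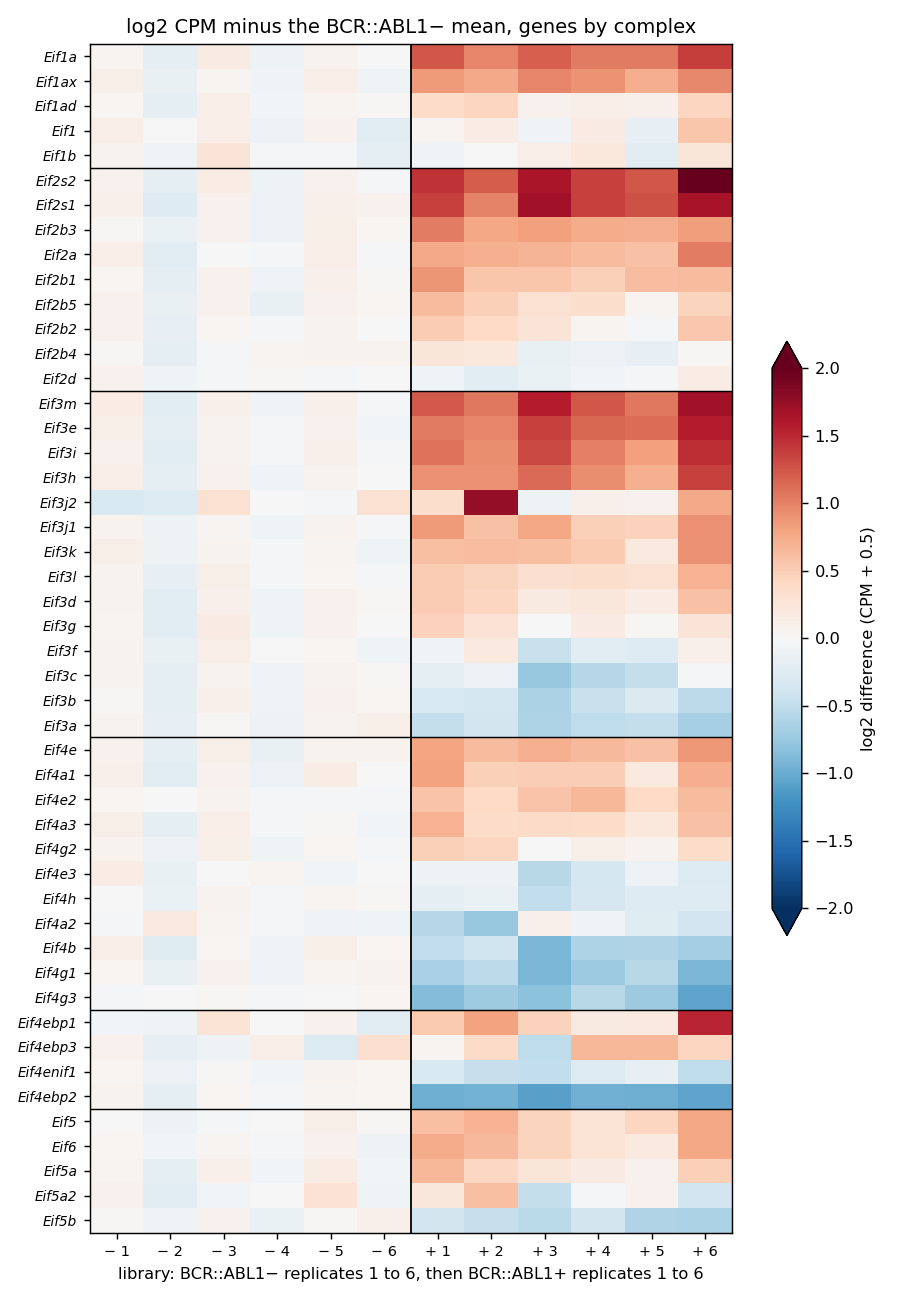
The log2 level (CPM + 0.5) of each tested initiation factor (y axis, by complex) in each library (x axis) minus the mean of the 6 BCR::ABL1- libraries, where red is higher and blue lower. The BCR::ABL1+ libraries look alike within most genes, with single deep fields for Eif3j2 in replicate 2 (3.98 CPM) and Eif4ebp1 in replicate 6 (93.3 CPM).

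All 11 tested genes of eIF4F and its helicase partners passed the test, 5 higher and 6 lower. Among all genes with a mean of at least 20 CPM 74.7% passed, 29.9% higher and 44.7% lower. The median log2 fold change of the 11 genes was -0.25, and 0.01 with GC and length trends taken out. It was -0.02 with DESeq2 and -0.07 with no filter on low counts, where Eif4a3l1 (3 counts in all) joined the list. The summed level of these genes did not separate the groups, at 4426 to 5137 CPM in BCR::ABL1- against 4399 to 5404 CPM in BCR::ABL1+ libraries. The cap-binding protein and the main helicase rose. Eif4e (ENSMUSG00000028156), which binds the cap and limits eIF4F assembly, had 103 to 128 CPM (median 124) against 178 to 216 CPM (median 190), a log2 fold change of 0.70 (SE 0.0715, adjusted p = 6.14e-07). Eif4a1, the DEAD-box helicase of eIF4F, had 614 to 786 CPM (median 730) against 808 to 1240 CPM (median 998), a log2 fold change of 0.54 (SE 0.098, adjusted p = 0.000208). Both were above the BCR::ABL1- range in every BCR::ABL1+ library. The scaffolds were called lower, though with GC and length trends taken out Eif4g1 was at -0.14 (adjusted p = 0.0925) and Eif4g3 at -0.24 (adjusted p = 0.00396). Eif4g1 (ENSMUSG00000045983), the main scaffold, had 587 to 686 CPM (median 669) against 344 to 451 CPM (median 404), a log2 fold change of -0.71 (SE 0.08, adjusted p = 1.83e-06). Eif4g3, its close relative, had 202 to 215 CPM (median 207) against 99.7 to 141 CPM (median 122), a log2 fold change of -0.78 (SE 0.0722, adjusted p = 2.39e-07). Eif4b, the RNA-binding protein that stimulates eIF4A, had 701 to 910 CPM (median 855) against 443 to 628 CPM (median 546), a log2 fold change of -0.61 (SE 0.088, adjusted p = 2.04e-05). None of these 3 genes had a BCR::ABL1+ library within the BCR::ABL1- range. Eif4h, which acts on eIF4A in a like manner, fell by 0.28 (adjusted p = 0.00205).

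The paralogs of eIF4F parted as well. Eif4a2, the second cytoplasmic eIF4A, was called lower at -0.30 (adjusted p = 0.0416), with 271 to 328 against 170 to 308 CPM. The call was lost without any 1 of BCR::ABL1- replicates 1 to 4 or BCR::ABL1+ replicates 1, 5 and 6, where the adjusted p was 0.0538 to 0.0902. Eif4a3, the exon junction complex helicase, rose by 0.44 (adjusted p = 0.000262), from 114 to 144 CPM to 152 to 211 CPM. The ratio of Eif4a1 to Eif4a2 was 1.87 to 2.87 in BCR::ABL1- against 3.22 to 6.40 in BCR::ABL1+ libraries, while that of Eif4a1 to Eif4a3 overlapped (5.10 to 5.88 and 5.31 to 5.96). Eif4e2, the eIF4E homologue that represses mRNAs, rose by 0.54 (adjusted p = 1.61e-06), from 77.0 to 83.7 CPM to 105 to 126 CPM. Eif4e3, an atypical cap binder, was called lower at -0.25 (adjusted p = 0.0202), with 35.7 to 43.9 against 26.9 to 36.8 CPM. The ratio of Eif4e to Eif4e3 was 2.59 to 3.24 in BCR::ABL1- against 4.80 to 7.11 in BCR::ABL1+ libraries. Eif4g2 (DAP5), which lacks the eIF4E-binding site and serves cap-independent initiation, had 1270 to 1500 CPM (median 1390) against 1390 to 1920 CPM (median 1640), and the call (0.25, adjusted p = 0.0251) was lost without BCR::ABL1- replicates 2 or 4 or BCR::ABL1+ replicates 1, 2 or 6 (0.0514 to 0.064). The ratio of Eif4g1 to Eif4g2 was 0.458 to 0.50 in BCR::ABL1- against 0.194 to 0.302 in BCR::ABL1+ libraries, and that of Eif4g1 to Eif4g3 overlapped (2.82 to 3.29 and 2.77 to 3.66). Eif4a1, Eif4a2, Eif4g1 and Eif4g2 have snoRNA genes within their exons or overlapping them on the same strand, Eif4a2 also overlaps Rfc4 on the other strand, and Eif4e3 overlaps the coding gene Gm20696. The 2 remaining members were not tested, because Eif4e1b, an oocyte form of eIF4E, had 0 counts in each of the 12 libraries, where 3 counts would be 0.0725 to 0.184 CPM, and Eif4a3l1 had 3 counts in all.

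The 4E-binding proteins differed among themselves (median log2 fold change 0.08), and the lowest value of the set was that of Eif4ebp2. Their summed level was 443.7 to 515.7 CPM in BCR::ABL1- against 292 to 343.2 CPM in BCR::ABL1+ libraries, with 1 of 4 genes higher and 2 lower. The share called of 75% is near the 74.7% of all genes with a mean of at least 20 CPM. Eif4ebp2 (ENSMUSG00000020091), which like its relatives holds eIF4E away from eIF4G, had 296 to 352 CPM (median 343) against 157 to 173 CPM (median 169), a log2 fold change of -1.0 (SE 0.0586, adjusted p = 6.53e-09), and of -0.50 with GC and length trends taken out. The BCR::ABL1+ libraries were close together, with a coefficient of variation of 3.84%. Eif4enif1 (4E-T), which carries eIF4E into the nucleus and into P-bodies, fell by 0.37 (SE 0.0671, adjusted p = 0.000223), from 117 to 134 CPM (median 129) to 88.9 to 113 CPM (median 97.7). Eif4ebp1, the 4E-BP best known as an mTORC1 target, moved up and varied most among the abundant members. It had 27.4 to 38.6 CPM (median 31.5) against 36.2 to 93.3 CPM (median 45.1), a log2 fold change of 0.70 (SE 0.21, adjusted p = 0.0121), and 0.44 without BCR::ABL1+ replicate 6. Eif4ebp3 was hardly counted, at 0.443 to 0.943 against 0.306 to 1.31 CPM (0.52, adjusted p = 0.182), overlaps another coding gene and passed when BCR::ABL1+ replicate 3 was left out (0.69, adjusted p = 0.0466). The ratio of Eif4ebp1 to Eif4ebp2 was 0.0813 to 0.113 in BCR::ABL1- against 0.213 to 0.585 in BCR::ABL1+ libraries. The ratio of Eif4e to Eif4ebp2, chosen after the values were seen, was 0.331 to 0.373 in BCR::ABL1- against 1.05 to 1.35 in BCR::ABL1+ libraries, and that of Eif4e to Eif4g1 was 0.176 to 0.190 and 0.405 to 0.627. In CPM per kilobase of exon, Eif4e had a median of 20.7 in BCR::ABL1- against 31.6 in BCR::ABL1+ cells, and that of Eif4ebp2 was 59.3 and 29.3.

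**Figure D4:**
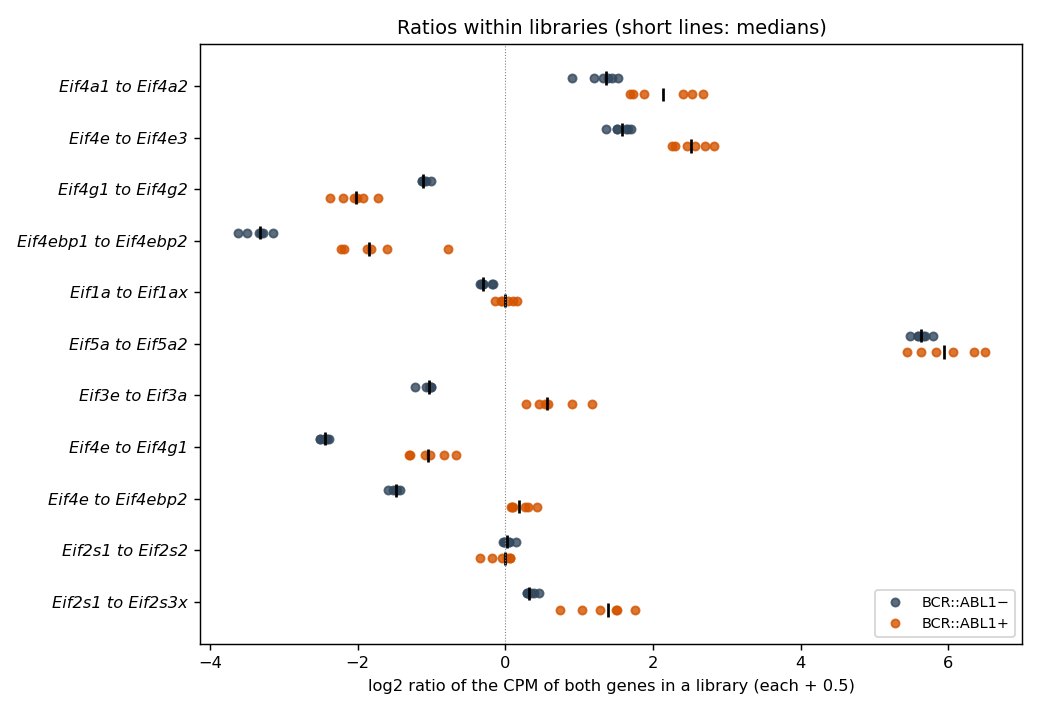
Ratios of initiation factors within each library (x axis, log2 of the CPM ratio after adding 0.5 to each gene) for 11 gene pairs (y axis), with points for libraries and short lines for group medians (n = 6 each). The groups do not overlap for 9 of the pairs, and they overlap for Eif5a to Eif5a2 and Eif2s1 to Eif2s2. The last 5 pairs, from Eif3e to Eif3a on, were chosen after the values were seen. Paralog ratios that overlapped, such as Eif1 to Eif1b, Eif4a1 to Eif4a3 and Eif4g1 to Eif4g3, are not shown. The count of pairs apart therefore follows from the choice of pairs.

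Of the late factors, 3 of 5 were higher and 1 lower. The share called of 80% is near the 74.7% of all genes with a mean of at least 20 CPM. Eif5, the GTPase-activating protein of eIF2, rose by 0.54 (adjusted p = 2.72e-05), from 309 to 359 CPM to 402 to 565 CPM. Eif6, which keeps the large subunit from joining too early, rose by 0.53 (adjusted p = 0.000167), from 43.7 to 49.6 CPM to 53.9 to 80.3 CPM. Eif5a, the hypusine-bearing factor that also serves elongation, had 621 to 776 CPM (median 699) against 743 to 1110 CPM (median 879), a log2 fold change of 0.35 (SE 0.0963, adjusted p = 0.0057), and its groups overlapped. Its paralog Eif5a2 had 11.5 to 16.8 against 9.62 to 20.9 CPM (0.04, adjusted p = 0.835). The ratio of both overlapped between the groups, at 44.8 to 55.4 and 43.5 to 90.3. Eif5b, the GTPase of subunit joining, went down, with 129 to 152 CPM (median 144) against 91.4 to 110 CPM, a log2 fold change of -0.50 (SE 0.0653, adjusted p = 8.37e-06). It shares exon sequence with Rev1 on the other strand, and antisense genes overlap Eif6, Eif3d and Eif1b, so these values are uncertain as well.

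The members varied more among BCR::ABL1+ than among BCR::ABL1- libraries. The median coefficient of variation of the 48 genes was 7.62% in BCR::ABL1- against 12.8% in BCR::ABL1+ libraries, and it was higher in BCR::ABL1+ for 45 of them. Over all genes the fitted biological coefficient of variation was 10.83% in BCR::ABL1- against 32.61% in BCR::ABL1+ libraries. That is another measure, the root of a common dispersion without counting error, so it compares the groups and not the members with all genes.

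The calls of the members differed with the length of their transcripts. The 28 genes called higher had a median transcript length of 2005 bases and the 12 called lower one of 3783 bases. Among the 18 members in the shortest quartile of all coding genes (2039 bases or less) 15 were higher and 0 lower, with a median log2 fold change of 0.49, while all genes of that quartile had a median of 0.26. Among the 10 members in the longest quartile 4 were higher and 5 lower, with a median of -0.23, while all genes had -0.36. Spearman's rho between log2 fold change and length was -0.379 over 46 members and -0.334 over all 11558 coding genes, and with GC content it was -0.378 and -0.269. Both sets, and the quartiles, took genes with a mean log2 CPM of at least 1. That is a minimum only, and the coding genes were not matched to the members for level. The median GC content was 48.8% for members called higher and 50.2% for those called lower. In the quartile of lowest GC content 11 were higher and 4 lower, against 4 and 2 in the highest. From the lowest to the highest GC quartile the median log2 fold change of members was 0.70, 0.54, 0.20 and 0.21. Over all genes it was 0.10, -0.07, -0.20 and -0.38. These are descriptions across genes of the same libraries, and genes are not independent replicates.

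**Figure D5:**
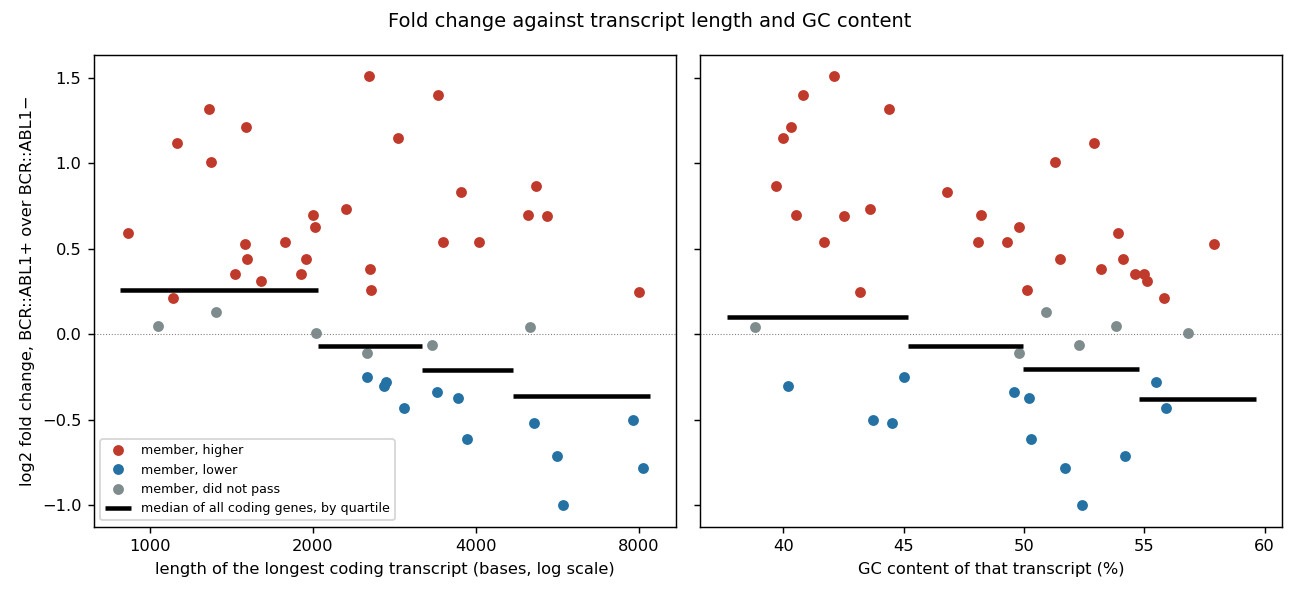
The log2 fold change of each initiation factor with a mean log2 CPM of at least 1 (y axis) against the length of its longest coding transcript (left, log scale) and its GC content (right), with black lines for the median of all coding genes in each quartile. Both the members and all genes go from positive to negative values with length, and the quartile medians of all genes run from 0.26 to -0.36 by length and from 0.10 to -0.38 by GC content.

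When the trends with GC content and length were taken out of the fit over all genes, an alternative chosen after seeing the data that also takes out any difference that goes with length, 28 members were higher and 9 lower. Besides Eif3b, Eif3c and Eif4g1, Eif3g did not pass (0.08, adjusted p = 0.494), and Eif4h was at 0.01 (adjusted p = 0.933). The falls of Eif4ebp2 (-0.50), Eif4b (-0.40), Eif5b (-0.28), Eif4g3 (-0.24) and Eif4enif1 (-0.17) and the rises of Eif3e (0.56), Eif3m (0.75), Eif2a (0.44), Eif3k (0.30) and Eif4a1 (0.31) passed but were smaller by over 1.5 times. Eif3a (-0.39) passed as lower. Eif2s1 (1.15), Eif2s2 (1.19), Eif1a (0.80), Eif1ax (0.80), Eif3i (0.85), Eif3h (0.73) and Eif4e (0.65) passed as higher. Eif4a2 and Eif4e3 were further down (-0.67 and -0.44), Eif4g2 was further up (0.45), Eif2b4 passed as higher (0.23, adjusted p = 0.0363) and Eif1b as lower (-0.20, adjusted p = 0.0424).

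The promoters of the members were read for 3 motifs and for the start of a TOP mRNA, because Myc and Max bind the E-box, ETS factors drive many housekeeping promoters, and mRNAs with a 5′ terminal oligopyrimidine (TOP) tract respond to mTORC1. RefSeq windows of 250 bases before to 50 after the start (build GRCm38.p6, both strands searched, chosen after the values were seen) were at hand for 38 of 50 members. The E-box CACGTG was in 10 of 38 (26.3%), against 8.09% of 27025 genes in the table and 11.3% of the 11161 that were tested for expression. It was in 4 of 20 members called higher, 3 of 11 called lower and 3 of 6 that did not pass. The ETS motif CCGGAAG was in 15 of 38 (39.5%), against 9.93% of all genes and 19% of those tested. The cyclic AMP response element TGACGTCA was in 0 of 38 and in 2.03% of all genes. A start of C followed by 4 pyrimidines was annotated for 1 member, Eif3f, and for 3.01% of all genes. Only the annotated start base was read, so a tract that begins a few bases away was missed. Members with no window, among them Eif3e, Eif3h and Eif3i, were not read. These counts therefore do not show which members have a TOP mRNA. A match describes these letters in this window, and binding was not measured. The windows around the E-box are shown for members that rose (Eif4e, Eif4a1, Eif3k), fell (Eif4g1, Eif4h) or did not pass (Eif3f), with the motif in capitals and the gene's strand and the bases from motif to start after each region.
Eif4e at chr3:138527192-138527221, plus strand, 64 bases before the start: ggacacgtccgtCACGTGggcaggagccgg
Eif4a1 at chr11:69672595-69672624, minus strand, 189 bases before the start: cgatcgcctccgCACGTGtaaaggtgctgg
Eif3k at chr7:28981915-28981944, minus strand, 44 bases before the start: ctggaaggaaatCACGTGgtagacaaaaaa
Eif4g1 at chr16:20672661-20672690, plus strand, 54 bases before the start: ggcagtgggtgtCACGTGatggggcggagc
Eif4h at chr5:134639488-134639517, minus strand, 96 bases before the start: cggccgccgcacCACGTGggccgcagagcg
Eif3f at chr7:108934335-108934364, plus strand, 68 bases before the start: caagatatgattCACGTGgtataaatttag
The same 6 letters thus stood near the start of genes of all 3 calls, including both the cap-binding protein called higher and the scaffold called lower. With GC and length trends taken out, Eif4g1 (-0.14) and Eif4h (0.01) did not pass. Eif3a, which also held an E-box in its window, passed as lower (-0.39).

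The other genes of the pathway, taken from lists of its parts, did not follow one direction. Of 15 initiation cofactors 5 were higher and 8 lower (median log2 fold change -0.23). Among all genes with a mean of at least 20 CPM, 29.9% were higher and 44.7% lower. Abce1, the ATPase that splits ribosomes for reuse, rose by 0.80 (adjusted p = 1.37e-06), and Mcts1, which with Denr helps initiation after short upstream frames, rose by 0.68 (adjusted p = 0.000328). Mknk2, the kinase MNK2 that phosphorylates eIF4E, fell by 0.98 (adjusted p = 5.83e-08), from 270 to 296 CPM to 125 to 173 CPM. Pabpc1, the poly(A)-binding protein that closes the mRNA loop on eIF4G, fell by 0.62 (adjusted p = 8.33e-06), from 2480 to 2870 CPM to 1510 to 2070 CPM. Larp1, which represses TOP mRNAs, fell by 0.58 (adjusted p = 5.21e-06).

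In the mTORC1 list of 12 genes 1 was higher and 7 lower (median -0.43), where 59.2% of all genes were called and 44.7% of genes with a mean of at least 20 CPM were lower. Tsc1 and Tsc2, the complex that inhibits mTORC1, fell by 1.13 (adjusted p = 1.1e-08) and 0.92 (adjusted p = 7.84e-08), and the S6 kinase gene Rps6kb2 fell by 0.56 (adjusted p = 8.84e-05). Mtor, Rptor and Mlst8, genes of mTORC1 itself, were lower too, by 0.55, 0.50 and 0.48, and their groups did not overlap. Rheb, the GTPase that activates mTORC1, was the 1 gene higher (0.46, adjusted p = 7.33e-05). In a list of 13 elongation and termination factors and related genes 10 were higher and 2 lower (median 0.60). Its related genes were Eef1e1, Eef2k, Dhps, Dohh and the mitochondrial initiation factors Mtif2 and Mtif3, all but Eef2k called higher. Of the elongation and termination factors themselves, Eef1a1, Eef1b2, Eef1d, Eef1g and Etf1 were higher, Eef2 was lower and Gspt1 did not pass. Eef1e1, a scaffold protein of the tRNA synthetase complex, rose by 1.33 (adjusted p = 3.86e-08), Eef1b2, an exchange factor of eEF1A, by 0.96 (adjusted p = 4.97e-06), and Dhps, which makes the hypusine of eIF5A, by 0.69 (adjusted p = 4.3e-05). Eef2k, the kinase that inhibits eEF2, and Eef2 itself, the translocase, fell by 0.89 (adjusted p = 6.05e-08) and 0.54 (adjusted p = 0.000208). Length and GC content were not taken out of these values.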

How the data were processed

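Murine bulk RNA-seq libraries (Kapa RNA HyperPrep, total RNA) of 6 BCR::ABL1- and 6 BCR::ABL1+ samples were grouped by their labels. The deposited values are raw counts per Ensembl gene made by the authors with no normalization. The submitters' processing notes name FastQC 0.11.9, fastp 0.23.2, STAR 2.7.10a, featureCounts 2.0.1, DESeq2 1.36.0 and the mouse build GRCm39, while the methods name Trim Galore!, HISAT2 and a human build for bulk RNA-seq. Which annotation was used, whether strand was counted and how multi-mapping reads were handled is not given in the sources used here. Symbols were matched to GENCODE M21 by identifier (52073 of 56748, 4675 unmatched), and the genes are not located on GRCm39 because the reference used here is GRCm38. The promoter windows carry their own RefSeq coordinates on GRCm38.p6. Human BCR::ABL1 itself was not counted. Transcript lengths, GC content and exon lengths come from GENCODE M21.

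Differential expression was computed over all libraries with edgeR 4.0.16 (TMM factors, filterByExpr, robust quasi-likelihood test, 18438 genes; R 4.3.3). The p-values were adjusted by Benjamini-Hochberg, and 0.05 was the threshold. CPM values are TMM-scaled, the SE of a log2 fold change is its size divided by the root of F, and ratios within libraries add 0.5 CPM to each gene. The floor was 3 counts per library. PCR copies are not independent molecules, so this limit covers counting error only. No pair of libraries agreed within sampling noise (lowest chi-square per degree of freedom 4.072). Alternatives were DESeq2 1.42.0, upper-quartile and RLE factors, no filter, a minimum of 1 CPM in 6 libraries, a replicate block, a fit that is not robust, a threshold of 0.01 and leaving out libraries. Leaving out BCR::ABL1+ replicates 2 and 4 together and taking out GC and length trends were added after seeing the data. On simulated counts of this comparison (18209 genes) edgeR called 116 of 198 changed genes, 0 in the wrong direction, and 6 of 18011 unchanged genes. Far fewer genes were changed there than the 59.2% called in the data, rises and falls were balanced, and no length trend was put in. These rates therefore need not hold for the data. Tables and plots used Python 3.11.15, pandas 2.3.3 and matplotlib 3.10.9.

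Genes given in full were the 8 largest rises and 8 largest falls past the threshold, the tested paralogs and genes with a library far from its group, and for other pathway lists at most 3 each way. The members and lists were chosen with earlier results of these data known. Eif2s3x, Eif2ak4, Ppp1r15b, Mtor, Rptor, Mlst8 and the ratios said to be chosen after the values were seen lie outside this rule.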

Additional observations from a re-analysis of the deposited data

Results flagged for a closer look

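In 96 groups (48 genes, each in the 6 libraries of either group) 4 had 1 library farther from its nearest neighbour than Dixon's 95% criterion allows, where chance gives about 4.8. Eif2b1 was at 69.6 CPM in BCR::ABL1+ replicate 1 (next 59.0) and Eif2b3 at 45.4 CPM in the same library (next 39.8). Eif3j2 was at 3.98 CPM in BCR::ABL1+ replicate 2 (next 1.73), and Eif4ebp1 was at 93.3 CPM in BCR::ABL1+ replicate 6 (next 56.4).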

How the results depend on the processing

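Of the 48 tested genes, 30 kept their direction and their side of the threshold under all 23 alternatives and 18 did not under at least 1. Counts of genes higher and lower ranged from 26 to 30 and from 11 to 12 with 1 library left out. They were 27 and 12 with DESeq2, 29 and 10 with upper-quartile factors, 23 and 12 with no filter, 25 and 10 without both libraries numbered 6, and 23 and 9 at a threshold of 0.01. With 1 library left out the median log2 fold change of the 48 was 0.32 to 0.39, that of eIF1 and eIF1A 0.22 to 0.30, of eIF2 and eIF2B 0.57 to 0.66, of eIF3 0.41 to 0.56, of eIF4F and its partners -0.28 to -0.19, of the 4E-BPs -0.01 to 0.18 and of eIF5, eIF5A, eIF5B and eIF6 0.27 to 0.39. The eIF4F median was -0.02 with DESeq2, -0.17 with upper-quartile factors, -0.07 with no filter and 0.01 with GC and length trends taken out. That of the 4E-BPs was -0.32 with a minimum of 1 CPM, which leaves fewer genes in the list. DESeq2 and the fit with no filter took in 49 members, which adds Eif4a3l1 (3 counts in all) to the eIF4F list. The genes nearest the middle of that list were Eif4e3 and Eif4g2. They were at -0.27 and 0.23 with DESeq2 and at -0.32 and 0.18 with no filter. The cause of the other shifts was not tested.

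Directions turned for genes near 0 and for Eif4h, which was called lower at -0.28 with groups that did not overlap. Eif2b4 was at -0.01 with DESeq2, -0.06 with no filter, -0.04 to 0.05 with 1 library left out and -0.02 without BCR::ABL1+ replicates 2 and 4. Eif5a2 was at -0.03 with no filter, -0.11 to 0.13 with 1 library left out (-0.01 without BCR::ABL1- replicate 2), -0.12 without BCR::ABL1+ replicates 2 and 4 and -0.06 with the trends taken out. Eif2d was at 0.02 with upper-quartile factors and 0.17 with the trends taken out, Eif1b at -0.02 with no filter and without both libraries numbered 6 and -0.20 with the trends taken out, Eif1 at -0.01 without both libraries numbered 6 and -0.15 with the trends taken out, and Eif4h at 0.01 with the trends taken out.

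With the replicate number as a replicate block, 26 genes were higher and 12 lower (median 0.36). Libraries that share a number did not deviate together (correlations from -0.125 to 0.0679, and 1 of 6 numbers matched best with itself), so the numbers do not pair the samples.

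Depth limits Eif4e1b and Eif4a3l1, which were under the floor of 3 counts or at 0, and makes Eif3j2 (352 counts in all libraries) and Eif4ebp3 (243) imprecise.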
